A study of Callithrix jacchus with 11 samples.

Results

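Hippocampal expression was compared between 3 aged and 3 young male common marmosets that had all been hand-reared by humans, which took 6 of the 11 arrays of the study. Young animals (HRY) were between 13 and 19 months old and aged animals (HRA) between 88 and 164 months. All 6 had been separated from their parents shortly after birth, fed by caregivers for 3 months and then housed with a male of their own age. The comparison asked which transcripts differed with stage in animals that shared this early life. The other 5 arrays, from 2 young (PRY) and 3 aged (PRA) animals raised by their parents, contributed to the estimate of the spread and served as a comparison. A transcript was tested if its signal was well above background on all HRA or on all HRY arrays, which held for 41382 of 54641 transcripts. The background flag is set by the scanner software.

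The hippocampus forms new memories and takes part in the control of the stress response, and in mammals its dentate gyrus goes on producing neurons after birth at a rate that declines with age. Separation from parents in infancy is widely used as a model of early adversity, and the marmoset is suited to it as a primate in which parents and older siblings share the care of the young. A stage difference among hand-reared animals is a difference between separate individuals, not within the same animals over time. Hand-reared infants came from litters too large for the mother to raise. The breeding facility formerly gave smaller infants to hand-rearing and later chose sturdier ones, and which practice applied to which animal is not given in the sources used here. Age therefore cannot be told apart from birth period.

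On a one-colour array, RNA of 1 animal is labelled with the dye Cy3 and the brightness of a spot follows the level of 1 transcript. Values below are log2 intensities minus the 75th percentile of the same array, so that 0 is the brightness below which 75 percent of the transcripts on that array lie. A difference of 1 on this scale is a fold change of 2. Each probe was designed on a different Ensembl transcript, written as ENSCJAT with a number. Tables used for gene names matched 0 of these identifiers. Transcripts are therefore given by identifier, and neither their functions nor the labelled tissue could be checked against marker genes.

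HRY1 and HRY2 were on array slide 1, whereas HRY3 and HRA1 to HRA3 were on slide 2. Each slide had its own scan. The 75th percentile of intensity was 2749 and 2592 for the slide 1 arrays and between 1510 and 1652 for the 4 arrays on slide 2. Between 41113 and 43437 transcripts per hand-reared array were well above background. Across the tested transcripts, the median absolute difference between HRY1 and HRY2 was 0.154 on the log2 scale, and between HRA1 and HRA2 it was 0.170. HRY3 differed from its group mates by 0.350 and 0.319, but from HRA3 by 0.185. HRA3 differed from HRA1 and HRA2 by 0.312 and 0.339. HRY3 and HRA3 were thus closer to each other than to the animals of their own groups. HRA1 and HRA2 also had lower RNA integrity than the other hand-reared animals, and the mothers of HRY1, HRY2 and HRA3 had themselves been hand-reared, so slide and mother's rearing coincide among the HRY animals. The part of slide, RNA integrity and mother's rearing in the results was not tested beyond the fits given with them.

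**Figure D1:**
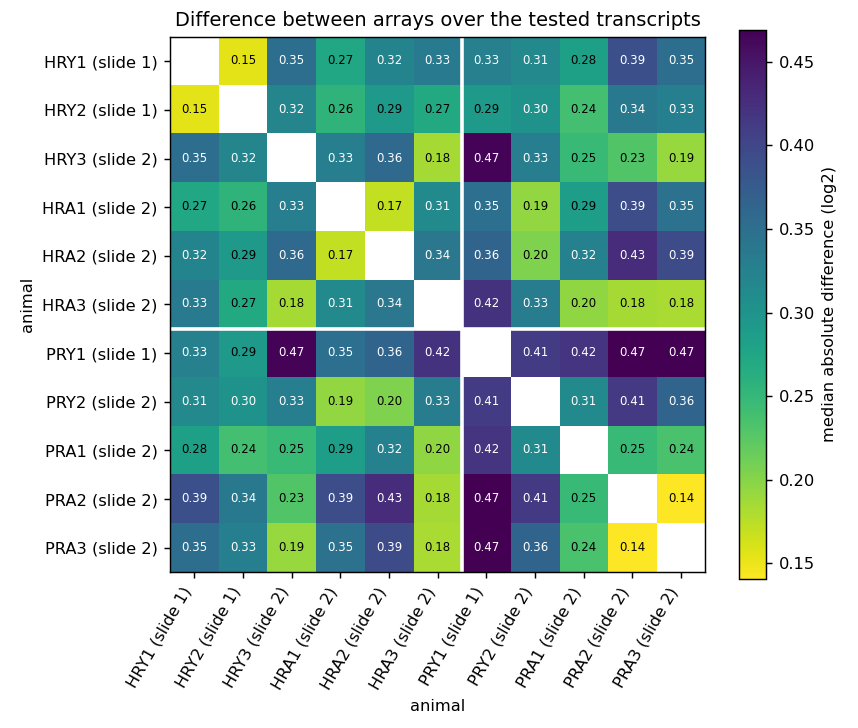
Median absolute difference between arrays over the 41382 tested transcripts, on the log2 scale, with animals on both axes, the array slide in parentheses and white lines between hand-reared and parent-reared animals. HRY1 and HRY2 differed by 0.154 and HRA1 and HRA2 by 0.170, whereas HRY3 was nearer to HRA3, at 0.185, than to either HRY animal.

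All counts of differing transcripts use the criteria of the study, a more than 2-fold change together with an unadjusted p under 0.05, here from limma. By these, 372 transcripts were higher in HRA and 373 were lower, or 0.899% and 0.901% of those tested. These 745 transcripts were 1.8% of the 41382. The median log2 fold change was 1.43 among the higher and -1.32 among the lower transcripts, against -0.0044 over all tested transcripts. Fitted values ran from -4.58 to 4.40, the latter for a transcript not well above background in HRY, and 64 of the higher and 62 of the lower transcripts changed by more than 2 on the log2 scale. Regardless of fold change, 3175 transcripts (7.67%) had an unadjusted p under 0.05, 1490 of them higher and 1685 lower in HRA. After Benjamini-Hochberg adjustment, 0 transcripts had an adjusted p under 0.05 in limma, and the smallest was 0.131, for a transcript that was not well above background in any HRY animal. Among transcripts past the criteria, measured on all 6 arrays and without overlap, the smallest limma-adjusted p was 0.200. The methods' t-test on the same 6 arrays gave 174 transcripts higher and 237 lower, with 2819 at an unadjusted p under 0.05 and likewise 0 after adjustment. In tissue RNA, fewer cells of a type and less RNA per cell cannot be told apart.

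**Figure D2:**
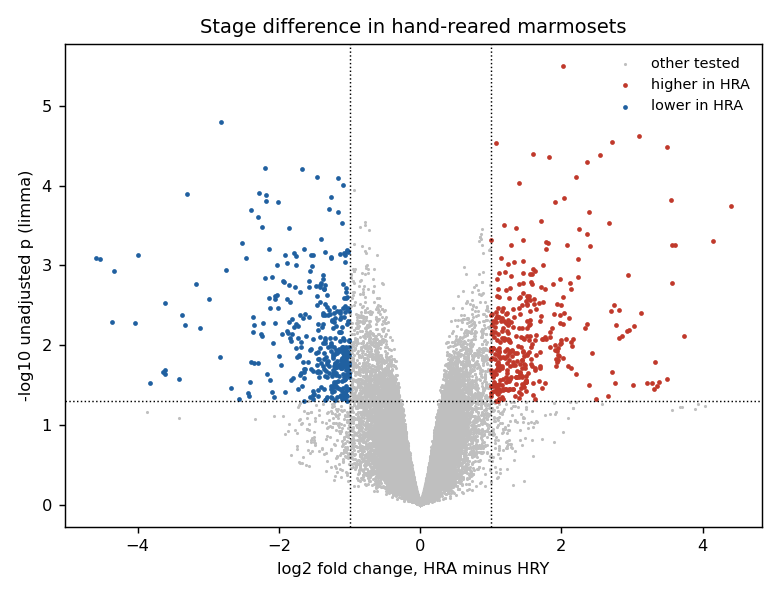
Log2 fold change, HRA minus HRY, of each tested transcript against -log10 of its unadjusted p in limma, with dotted lines at the fold change and p of the criteria. The 372 transcripts higher in HRA are red and the 373 lower ones blue, and both reach beyond 4 on the log2 scale.

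Every HRA value lay on one side of every HRY value for 539 of the 745 transcripts, or 72.3%, compared with 12.6% of all tested transcripts. Because the criteria select large and even differences, this share describes the 745 transcripts and is no separate test. Well above background on all 6 arrays were 516 of them, and 353 met this and had no overlap, 157 higher and 196 lower. The rest of the 745 were measured against a group in which at least 1 array did not reach the background limit. Of these, 99 were tested through HRA alone and 130 through HRY alone, compared with 453 and 1345 of all tested transcripts. Such transcripts thus made up a larger share of the 745 than of those tested. Dim transcripts passed more often. With the tested transcripts split by brightness into 5 equal groups, 3.91% of the dimmest group passed and 0.616% of the brightest, where 37 were higher and 14 lower in HRA. The median spread between animals of a group fell along the same order, from 0.350 to 0.211 on the log2 scale. For 38 tested probes that were printed 11 times per array, the median SD between spots was 0.0694, and between animals it was 0.213.

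Probes are numbered on the array, and many of the 745 transcripts were numbered consecutively. In 121 runs, 316 transcripts (42.4%) stood beside another that passed in the same direction, and the longest runs, 3 in number, held 6 transcripts. Counting each run once gives 269 higher and 281 lower. Consecutive tested probes moved together in general, with a median correlation of 0.545 across the 11 arrays over 33777 pairs. Whether transcripts of a run belong to the same gene is not stated in the files, so the 745 transcripts are not 745 independent measurements.

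Among transcripts measured on all 6 arrays and without overlap, the lowest log2 fold changes belonged to a run of 3, probe numbers 4101 to 4103. Of these, ENSCJAT00000012224.1 was measured at 2.54, -0.38 and -1.63 in HRY1 to HRY3 and at -5.10, -5.16 and -2.96 in HRA1 to HRA3. All HRA values were lower than all HRY values, but each group spread over more than 2 log2 units, and HRY3 and HRA3 were the closest pair across the stages. The log2 fold change was -4.58 ± 0.97 (SE), at a limma-adjusted p of 0.354. It was -2.78 against HRY3 alone and -3.40 without HRY1. With the slide as a term in a fit of the 6 arrays, none of the 3 transcripts of the run reached an unadjusted p under 0.05. ENSCJAT00000012216.2 and ENSCJAT00000012217.2 followed the same order of animals, with log2 fold changes of -4.53 and -4.33. In parent-reared animals the order of the stages was turned, with ENSCJAT00000012224.1 at -5.49 and -4.96 in PRY and between -3.12 and -1.63 in PRA.

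Other decreases had tighter groups. ENSCJAT00000013009.2 was at 0.24, -0.18 and -0.41 in the HRY animals and at -2.71, -4.80 and -3.67 in the HRA animals. Its young values lay within 1 log2 unit, and all aged values were more than 2 units below them. The means were -0.12 ± 0.33 in HRY and -3.73 ± 1.05 in HRA (SD, n = 3 each), a log2 fold change of -3.61 ± 0.92 (SE) at a limma-adjusted p of 0.476. ENSCJAT00000015447.1 was at 0.38, 0.46 and -0.26 in HRY and at -3.35, -3.40 and -2.67 in HRA. Both groups were narrow, and the log2 fold change was -3.33 ± 0.95 (SE), at a limma-adjusted p of 0.480. Its spread came from the parent-reared animals, where PRY1 was at -6.66 and PRA1 at -0.50. Against HRY3 alone the log2 difference was -2.87 and did not reach an unadjusted p under 0.05.

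ENSCJAT00000030851.1 was among the brighter transcripts that were lower in HRA. It was at 1.97, 2.96 and 4.75 in HRY1 to HRY3 and at 1.03, -0.42 and -0.45 in HRA1 to HRA3. Here HRY3, the young animal on the slide of the aged ones, was the farthest from them. The log2 fold change was -3.17 ± 0.75 (SE) at a limma-adjusted p of 0.429, and -4.69 against HRY3 alone. ENSCJAT00000037403.2 had the same pattern, with HRY values of -2.47, -1.66 and 0.11 and HRA values of -3.27, -4.15 and -3.69. Its log2 fold change was -2.36, -3.81 against HRY3 alone and -1.64 without HRY3. The smallest unadjusted p among decreases measured on all 6 arrays without overlap was that of ENSCJAT00000020883.2. It was at -0.96, -0.39 and -1.18 in HRY and at -3.54, -2.82 and -2.74 in HRA. The groups were more than 1 log2 unit apart on either slide, with a log2 fold change of -2.19 ± 0.33 (SE) at a limma-adjusted p of 0.217. Leaving out each hand-reared animal in turn moved the fold change between -2.36 and -1.94. ENSCJAT00000033057.2, ENSCJAT00000042609.2, ENSCJAT00000058160.1 and ENSCJAT00000022625.2 completed the 10 largest decreases measured on all 6 arrays without overlap, with log2 fold changes from -2.99 to -2.40. ENSCJAT00000022625.2 lost its call without HRY1, at -1.49, and without HRA2, at -1.81. ENSCJAT00000042609.2 lost it without HRA2, at -2.15. ENSCJAT00000024801.2 and ENSCJAT00000032953.2 had smaller differences with narrow groups, at -1.46 and -1.10. The latter was no longer past a fold change of 2 without HRY2, at -0.99, or without HRA1, at -0.95. With normexp background correction these differences were -0.79 and -0.24.

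Among transcripts that were higher in HRA, measured on all 6 arrays and without overlap, ENSCJAT00000054185.1 had the largest difference. It was at -5.47, -2.44 and -3.79 in HRY1 to HRY3 and at -0.19, 0.51 and -0.80 in HRA1 to HRA3. The aged values lay within 1.5 log2 units, and the young values spread over about 3. The log2 fold change was 3.74 ± 1.12 (SE), at a limma-adjusted p of 0.512. HRY3 lay between the other HRY animals, so that the difference from HRY3 alone was similar, at 3.63.

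A run of 6 transcripts, probe numbers 2827 to 2832, had log2 fold changes between 2.82 and 3.13. The largest, ENSCJAT00000036151.2, was at -6.28, -5.09 and -5.97 in HRY and at -2.05, -1.30 and -4.60 in HRA. HRA1 and HRA2 were about 3 log2 units or more above every HRY animal, and HRA3 was within 1 unit of HRY2. The log2 fold change was 3.13 ± 0.84 (SE), at a limma-adjusted p of 0.476. The other 5, ENSCJAT00000010554.2, ENSCJAT00000010551.2, ENSCJAT00000010560.1, ENSCJAT00000036156.2 and ENSCJAT00000036161.2, had HRA3 between -5.03 and -4.46, likewise the lowest aged value. By the methods' t-test ENSCJAT00000010551.2, ENSCJAT00000010554.2, ENSCJAT00000010560.1 and ENSCJAT00000036161.2 did not pass the criteria. Against HRY3 alone, ENSCJAT00000010560.1 had the largest increase among transcripts called on all 6 arrays without overlap, at 3.64.

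The pair ENSCJAT00000055291.1 and ENSCJAT00000022649.2 depended on the young animals of slide 1. ENSCJAT00000055291.1 was bright, at 0.60 in HRY1, 2.05 in HRY2 and 5.26 in HRY3, and at 6.64, 5.42 and 5.91 in the HRA animals. HRY3 was next to the aged animals and HRY1 and HRY2 were far below. The log2 fold change was 3.35 ± 1.35 (SE) at a limma-adjusted p of 0.617, but 0.73 against HRY3 alone, 2.33 without HRY1 and 4.67 without HRY3. It no longer reached an unadjusted p under 0.05 without HRY1, HRY2 (3.06), HRA1 (3.03) or HRA3 (3.39). Its neighbour ENSCJAT00000022649.2 was at 3.31 with all animals and 0.64 against HRY3 alone, and lost its call without HRY1 (2.26), HRY2 (3.02), HRA1 (3.01), HRA2 (3.62) or HRA3 (3.30). ENSCJAT00000020430.1, the last of the 10 largest increases under the same conditions, had a log2 fold change of 2.76 and lost its call without HRY1 (2.50), HRY2 (2.78), HRA1 (2.25) or HRA3 (2.78).

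The smallest unadjusted p-values among increases measured on all 6 arrays belonged to smaller differences with narrow groups. ENSCJAT00000040942.2 was at -5.74, -6.71 and -5.70 in HRY and at -3.65, -3.68 and -3.19 in HRA. All aged values were about 2 log2 units above the nearest young value on either slide. The log2 fold change was 2.54 ± 0.37 (SE), at a limma-adjusted p of 0.200. ENSCJAT00000035808.2 was at -5.08, -5.28 and -5.30 in HRY and at -3.74, -3.09 and -4.05 in HRA. Its log2 fold change was 1.59 ± 0.23 (SE), at a limma-adjusted p of 0.200. ENSCJAT00000013279.2 was at -5.35, -5.25 and -5.06 in HRY and at -4.35, -4.14 and -3.96 in HRA. Both groups were narrow, but the log2 fold change of 1.07 was near the limit of the criteria, and it was 0.97 without HRA3 and 0.91 against HRY3 alone.

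**Figure D3:**
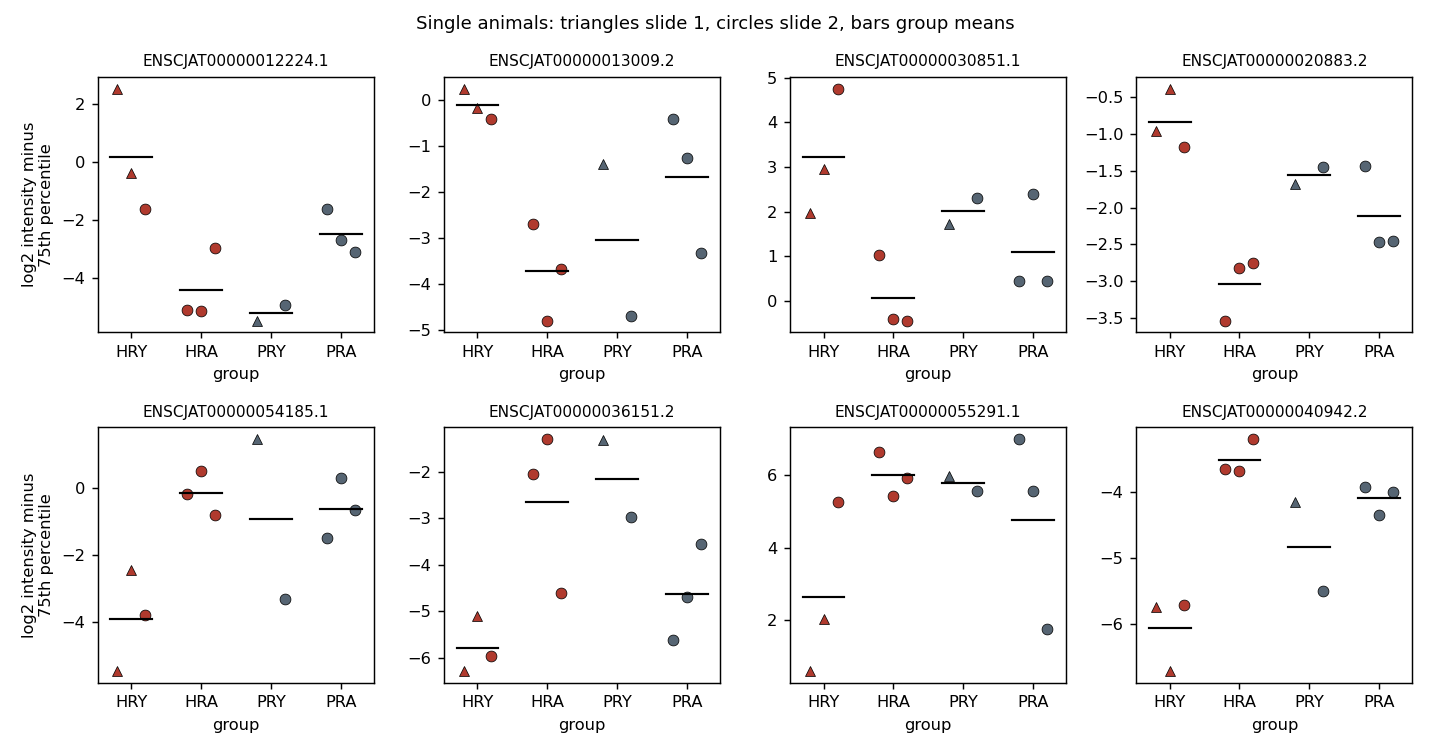
Log2 intensity minus the 75th percentile of the array for 8 transcripts in each of the 11 animals, by group, with triangles for slide 1, circles for slide 2, red for hand-reared and grey for parent-reared animals, and bars at group means. The vertical axes differ in range. HRY3, the only red circle among the HRY animals, lay with the slide 1 animals for ENSCJAT00000040942.2 and beside the aged animals for ENSCJAT00000055291.1.

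Some transcripts were well above background on all arrays of one stage and on none of the other. In HRA but not HRY there were 29 (0.0701% of those tested), of which 27 met the criteria, and in HRY but not HRA 191 (0.462%), of which 54 did. The dim group then gives a bound, computed from the lowest signal called well above background on each array or the probe's own signal where that was higher. The bound exceeded a fold of 2 for 14 and 17 transcripts, respectively. All such transcripts were tested through the brighter stage alone, and their p-values rest on signals of the other stage that were not well above background. ENSCJAT00000000004.1 was at -9.01, -9.20 and -8.74 in HRY, not well above background, and at -5.53, -3.95 and -4.28 in HRA. It was at least 5.18-fold higher in HRA, with an adjusted p of 0.263 in limma. ENSCJAT00000035092.1 was at least 5.90-fold higher, with an adjusted p of 0.640, and dropped below the criteria when any of the 6 animals was left out, at fitted log2 differences between 2.16 and 2.95. ENSCJAT00000004475.1 was likewise tested through HRA alone, and its p rests on HRY signals that were not well above background. It was at -7.46, -7.23 and -6.96 in HRY and at -5.46, -5.13 and -5.01 in HRA, and was at least 3.34-fold higher, with an adjusted p of 0.131 in limma. With normexp background correction its log2 fold change was 0.78, below the criteria.

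In the other direction, the largest bounds belonged to a run of 3, probe numbers 38071 to 38073. ENSCJAT00000054280.1 was at -2.56, -3.73 and -5.26 in HRY1 to HRY3 and at -7.62, -8.11 and -7.81 in HRA, not well above background. HRY3 was the lowest young value but remained more than 2 log2 units above the aged ones. The transcript was at least 7.23-fold lower in HRA, with an adjusted p of 0.348 in limma that rests on HRA signals not well above background. ENSCJAT00000059583.1 and ENSCJAT00000025891.2 were at least 6.81-fold and 6.73-fold lower. Their adjusted p was 0.476 each in limma and likewise rests on HRA signals not well above background. HRY3 was again the lowest young value, at -5.44 and -5.45.

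With HRY1 and HRY2 left out, all arrays compared were on slide 2 and HRY3 stood alone as the young animal, assumed to vary like the animals of the other groups. This fit gave 445 transcripts higher (1.08%) and 251 lower (0.607%) in HRA, 1.68% together, with 1875 at an unadjusted p under 0.05 and 0 at an adjusted p under 0.05 in limma, the smallest being 0.0688. HRY3 and the mean of HRY1 and HRY2 lay on the same side of the HRA mean for 54.1% of all tested transcripts. Of the transcripts called with all 3 HRY animals, whose selection included HRY3, 364 of 372 higher and 371 of 373 lower kept their direction. A fold change above 2 in the same direction was kept by 132 of the higher (35.5%) and 207 of the lower transcripts (55.5%), and 3.3% of all tested transcripts had one. Both comparisons use the same HRA animals, and HRY3 is part of both, so these counts are not independent. Past the criteria in both were 87 higher and 105 lower transcripts, which is 25.8% of the 745 and 27.6% of the 696 called against HRY3 alone.

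With HRY1 and HRY2 as the young animals, each stage was on its own slide, and slide and stage could not be told apart. The counts were 632 higher and 785 lower (3.42% in either direction), with 43 transcripts at an adjusted p under 0.05. This fit and the one against HRY3 alone share the HRA animals, which favours calls in the same direction. Called against either young reference in the same direction were 149 transcripts, and 18 were called in opposite directions. With the slide as a term in the model of all 11 arrays, there were 513 higher and 458 lower transcripts, of which 332 were among the 745 in the same direction. HRY3 was the HRY animal nearest to the HRA mean for 281 of the higher and 226 of the lower transcripts, that is for 507 of 745, and for 38.4% of all tested transcripts. HRA3 was likewise the aged animal nearest to the HRY mean for 487, and for 44.3% of all tested transcripts. Between these 2 animals, HRA3 minus HRY3 had the called direction for 253 of the higher and 339 of the lower transcripts, by a fold change above 2 for 105 and 148. Because both animals took part in selecting the 745, these counts are no separate test. No share over all tested transcripts is given beside them.

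**Figure D4:**
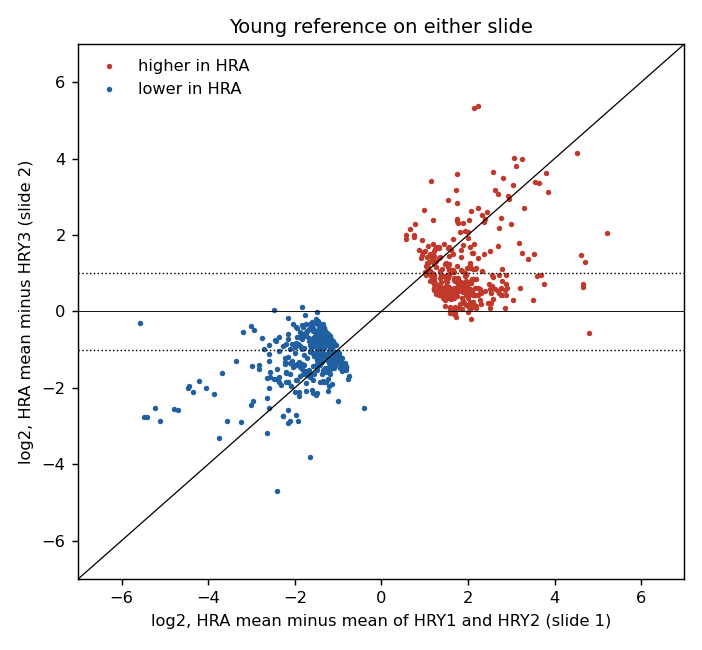
Log2 difference of the HRA mean from the mean of HRY1 and HRY2, on slide 1 (horizontal), and from HRY3, on slide 2 (vertical), for the 745 transcripts past the criteria with all animals. Dotted lines mark a fold change of 2 from HRY3 and the diagonal marks equal differences; both axes share the HRA mean. Most higher transcripts (red) lie below the upper dotted line, and 132 of 372 lie above it.

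RNA integrity and mother's rearing were added to the model in turn. With RNA integrity in the model, there were 378 higher and 505 lower transcripts in HRA, and 390 of the 745 were called in the same direction. With mother's rearing, the counts were 255 and 260, and 447 of the 745 were kept. Leaving out single animals kept between 390 (without HRY1) and 656 (without HRY3) of the 745. Another scaling shifted the balance of the directions. On spike-in RNA, added in fixed amounts and measured by 7 of 10 spike-in probes, the median of all tested transcripts moved to -0.31, and 174 transcripts were higher and 1027 lower. The mean spike-in signal above the 75th percentile was 0.02, -0.11 and 0.63 in HRY1 to HRY3 and 0.29, 0.40 and 0.76 in HRA1 to HRA3. The difference of the group means was 0.30. HRY1 and HRY2 lay under every HRA animal, and HRY3 lay between HRA2 and HRA3. The part of the slide in this difference was not tested. Directions given here are relative to the 75th percentile. With normexp background correction 246 were higher and 119 lower, 345 of the 745 kept the call and 711 their direction.

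The stage difference of the parent-reared animals, PRA minus PRY, was measured in other animals and is set beside that of the hand-reared ones. In it, 722 of the same 41382 transcripts were higher (1.74%) and 1333 lower (3.22%) by the same criteria. Of the 372 transcripts higher in HRA, PRA minus PRY was above 0 for 148, or 39.8%, compared with 51.0% of all tested transcripts. Of the 373 lower in HRA, it was below 0 for 122, or 32.7%, compared with 49.0%. The median log2 difference between PRA and PRY was -0.15 among the former and 0.32 among the latter, against 0.01 overall. Among the higher transcripts 12 (3.23%) were called higher and 24 (6.45%) lower in PRA, and among the lower transcripts 12 (3.22%) were called lower and 61 (16.4%) higher. PRY consisted of 2 animals on different slides, PRY1 on slide 1 and PRY2 on slide 2. The median absolute difference between PRY1 and PRY2 was 0.413 on the log2 scale. PRY2 differed least from HRA1 and HRA2, by 0.193 and 0.204, which had the lower RNA integrity among hand-reared animals. Read in array order, the paper's RNA quality values give PRY2 the lowest RNA integrity of all animals, followed by HRA2 and HRA1. The PRY mean in PRA minus PRY rests on PRY1 and PRY2 alone. The part of slide and RNA integrity in the opposite directions was not tested.

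The difference between the stage effects of the 2 rearings was tested as an interaction. Over all tested transcripts, limma gave 7825 (18.9%) at an unadjusted p under 0.05 for this term and 0 after adjustment, the smallest adjusted p being 0.202. Without HRA3, 1597 passed after adjustment, and 0 did when any other hand-reared animal was left out. Among the 745 transcripts the unadjusted p was under 0.05 for 458, a share that the selection on HRA minus HRY raises. Both stage differences were without overlap and opposite for 133 of the 745 transcripts, and without overlap in the same direction for 49. Over all 41382 tested transcripts, 1098 (2.65%) were opposite and 652 (1.58%) in the same direction.

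**Figure D5:**
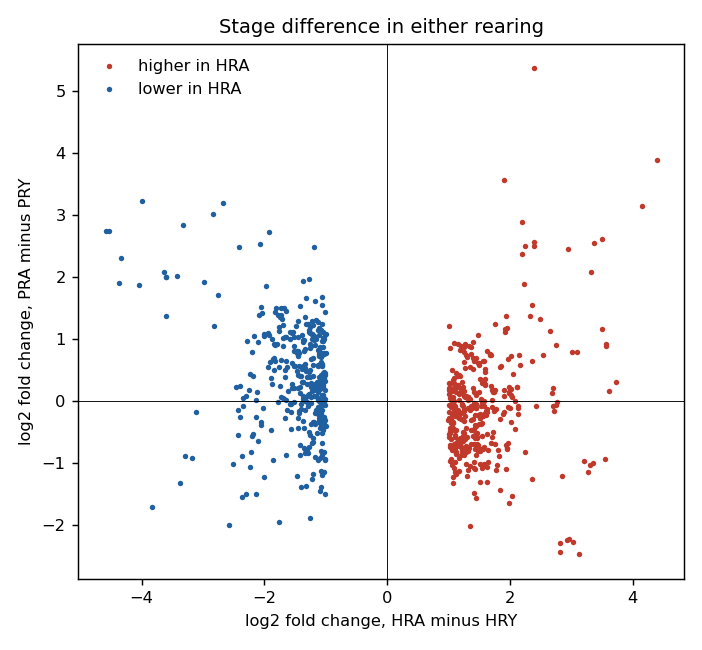
Log2 fold change between the stages in hand-reared animals (horizontal, HRA minus HRY) and parent-reared animals (vertical, PRA minus PRY) for the 372 transcripts higher (red) and the 373 lower (blue) in HRA. Of the red points 148 lie above 0 on the vertical axis, and of the blue points 122 lie below it.

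A smaller number of transcripts separated all 6 aged from all 5 young animals of either rearing. All aged arrays were on slide 2, so slide varied only among the young animals. Among the tested transcripts 188 (0.454%) were higher in every aged animal and 178 (0.43%) lower, and among the 745 there were 14 and 17. Many of these 14 and 17 were tested through the brighter hand-reared group alone, so their separation rests partly on signals not well above background. The following examples were chosen after their values were seen. ENSCJAT00000029105.2 was at -6.96, -5.38 and -3.01 in HRY and at -0.64, -0.83 and -1.45 in HRA. The aged values lay close together and HRY3 was the highest of the young. It was tested through HRA alone, being well above background on all 3 HRA arrays and on 2 of the 3 HRY arrays, so no fold against the HRY mean is given. The log2 difference from HRY3 alone was 2.04.

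In a run of 3, ENSCJAT00000008557.2 and ENSCJAT00000006732.2 were well above background on all 6 arrays and had log2 fold changes of 2.40 and 2.25. The third, ENSCJAT00000059184.1, was well above background on 2 of the 3 HRY arrays and was tested through HRA alone. ENSCJAT00000008557.2 was at -4.46, -2.89 and -4.15 in HRY, at -1.82, -1.65 and -0.84 in HRA, at -4.10 and -4.55 in PRY and between -2.23 and -1.30 in PRA. HRY3 was here on the side of the young animals, with a difference of 2.71, and leaving out any hand-reared animal kept the fold change between 2.08 and 2.87. ENSCJAT00000036350.2 was at -6.46, -6.40 and -5.51 in HRY and at -4.19, -4.04 and -3.51 in HRA. Its log2 fold change was 2.21 (adjusted p of 0.221 in limma). Both PRY values, at -7.43 and -7.21, were under the lowest signal called well above background on those arrays, -6.61 and -6.64. The fitted difference of PRA minus PRY, 2.89, is therefore not a measured size. Among transcripts lower in every aged animal, ENSCJAT00000022452.2 was at -2.11, -2.26 and -3.00 in HRY and at -3.70, -3.76 and -3.76 in HRA. The aged animals differed by less than 0.1 log2 units, the young ones by almost 1, and the log2 fold change was -1.29, but -0.74 against HRY3 alone. ENSCJAT00000064284.1 had a log2 fold change of -1.31, and -0.96 against HRY3 alone. Both of these decreases separated the stages only narrowly, because PRY2 lay almost level with the aged animals. For ENSCJAT00000022452.2, PRY2 was at -3.66 and PRA2 at -3.68. For ENSCJAT00000064284.1, PRY2 was at -5.00 and PRA3 at -5.02.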

How the data were processed

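Hippocampal RNA of 11 male marmosets was hybridized to one-colour arrays. The authors scanned them with Agilent Feature Extraction 11.0.1.1, per the submitters' processing notes, and the deposited scanner output holds a background-subtracted intensity per spot, not normalized between arrays. A deposited table of 44118 transcripts holds the same values as a linear ratio to each array's 75th percentile (within 1% up to a constant per array) and was an alternative. Control spots and outlier spots were left out, which removed 29 transcripts, spots of a probe were averaged as log2 values, and the 75th percentile was subtracted. No spot was saturated (0). The number of arrays limits the precision.

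Using R 4.3.3 and limma 3.58.1, HRA minus HRY and the interaction with rearing were tested (4 group means, 11 arrays, two-sided, Benjamini-Hochberg over 41382 transcripts), after a test on simulated data. The methods mention a t-test for comparisons generally, without tying it to the arrays. Transcripts and lists were chosen with earlier results of these data known. Named were, among transcripts past the criteria, on all 6 arrays and without overlap, the 10 largest changes, the 3 smallest p-values and the 3 largest against HRY3 alone in each direction, and the 3 largest bounds in each direction, 33 in all. A further 7 were chosen after their values were seen.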

Additional observations from a re-analysis of the deposited data

Results flagged for a closer look

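For 12 of the named transcripts, every HRA animal lay on one side of every HRY animal and every PRA animal on the opposite side of every PRY animal. Their interaction, the stage difference in hand-reared minus that in parent-reared animals, had an adjusted p of 0.202 in limma for each. The log2 interaction was positive for the run of 6, at 5.604 for ENSCJAT00000036151.2, 5.30 for ENSCJAT00000010554.2, 5.18 for ENSCJAT00000010551.2, 5.17 for ENSCJAT00000010560.1, 5.10 for ENSCJAT00000036156.2 and 5.25 for ENSCJAT00000036161.2. It was negative for the run of 3, at -7.32 for ENSCJAT00000012224.1, -7.27 for ENSCJAT00000012216.2 and -6.65 for ENSCJAT00000012217.2. It was also negative for ENSCJAT00000033057.2, at -4.91. For these 10 transcripts the unadjusted p in limma was between 0.000503 and 0.00254. All 12 were named for a large difference between HRA and HRY, which is part of the interaction. They were then flagged for the opposite order in parent-reared animals. This selection raises the interaction and lowers its p, so neither is a separate test. The fitted values for ENSCJAT00000042609.2 and ENSCJAT00000054280.1, -5.84 and -7.22, are not measured sizes. Both PRY values of ENSCJAT00000042609.2, at -7.03 and -7.09, and of ENSCJAT00000054280.1, at -8.93 and -8.90, were under the lowest signal called well above background on those arrays, -6.61 and -6.64, and ENSCJAT00000054280.1 was not well above background on any HRA array. The young parent-reared group in these differences held 2 animals, and neighbouring probes of a run moved together, so the 12 are not independent of each other. The cause of these differences was not tested.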

How the results depend on the processing

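Quantile normalization, the deposited table and a fit of the 6 hand-reared arrays alone kept each count within 1.5 times. Counts given as higher and lower in HRA moved to 246 and 119 with normexp correction, to 603 and 673 without a filter on dim probes (4854 at an unadjusted p under 0.05 and 7 at an adjusted one), and to 174 and 237 with the methods' t-test. With only transcripts on all 6 arrays 245 were lower, and with the slide in a fit of 6 arrays 600 were higher. With HRY3 as the only young array 1875 had an unadjusted p under 0.05, with mother's rearing 2052. With HRY1 and HRY2 alone the counts were 632 and 785, 5486 unadjusted and 43 adjusted. Array weights, which ranged from 0.305 for HRY3 to 5.03 for HRA1, gave 923 and 1045, 15642 unadjusted and 8311 adjusted. With no fold-change minimum they were 1490 and 1685. Spike-in scaling, chosen after seeing the data, gave 174 and 1027, and 3049 for the interaction at an unadjusted p under 0.05, where RNA integrity in the model gave 4878. With each animal left out, the higher counts ranged from 230 to 632, the lower from 256 to 785, the unadjusted from 1548 to 5611 and the adjusted from 0 to 43 (without HRY3). For the interaction the ranges were 4451 to 11785 and 0 to 1597 (without HRA3). The cause of these movements was not tested. Same-numbered HRY and HRA animals are different animals, and the correlations of their deviations from group means were 0.309, 0.040 and 0.162. With the replicate number as a block in the 6 arrays, 321 were higher and 421 lower, 3975 at an unadjusted p under 0.05 and 0 adjusted. Of 872 checks on 40 named transcripts, 786 kept the call, 86 lost it and 0 reversed, and 17 of the 40 kept it throughout. With HRY3 alone as the young array, 14 of the 40 lost it.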
